A study of Mus musculus with 24 samples.

Results

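The 10 genes described here are Flt3, which encodes the receptor tyrosine kinase FLT3, Flt3l, which encodes the FLT3 ligand, and 8 genes that mark dendritic cells or their state: Xcr1, Clec9a, Batf3, Zbtb46, Ccr7, Itgae, Cd209a and Siglech. They were chosen by symbol, through the Ensembl identifiers of the GENCODE M21 mouse annotation, and are 10 of the 55401 genes in the count table. Gene expression was measured by poly(A) RNA sequencing of 24 tumors of TC2Ras, a line derived from the mouse prostate cancer line TRAMP-C2 by lentiviral transfer of activated H-Ras and the mouse androgen receptor. All hosts were immunocompetent male C57/BL6 mice, 8 to 10 weeks of age, and every mouse received plasmid DNA in muscle with ultrasound, so that the control tumors had also been exposed to an empty vector. The study asked how IL-27 gene therapy and cabozantinib (cabo), an inhibitor of several receptor tyrosine kinases given by mouth, changed the tumors. FLT3 is among the kinases that cabo is known to inhibit.

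Subcutaneous tumors were taken 1 week after implantation from mice given the empty vector (control, n = 2) or the IL-27 vector (IL-27, n = 2). Tumors grown in the tibia from TC2Ras-Luc cells were taken at day 14 with 3 tumors per group, or at the end of the study (EOS) with 2 tumors per group. The intratibial groups were control (empty vector and the polyvinylpyrrolidone vehicle, PVP), IL-27 (IL-27 vector and PVP), cabo (empty vector and cabo) and IL-27+cabo. Cabo or PVP was dosed daily up to about the time of the day 14 harvest, so the EOS tumors were collected after dosing had ended. The intratibial libraries carry mouse numbers, by which they are named below, and the subcutaneous libraries carry only the numbers 1 and 2, so that p-values in that arm measure the spread between these libraries.

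Dendritic cells take up tumor antigen, carry it to lymph nodes and present it to T cells. FLT3 ligand, made by stromal and lymphoid cells, acts on FLT3 on progenitors and on conventional dendritic cells and sustains their numbers. Conventional type 1 cells (cDC1) depend on the factor BATF3 and display XCR1 and CLEC9A, conventional type 2 and monocyte-derived cells can express CD209A, plasmacytoid cells display SIGLEC-H, and cells that mature and migrate raise CCR7. In bulk tumor, fewer cells of a type and less RNA per cell cannot be told apart.

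The libraries held between 63729005 and 83782258 counts. The day 14 IL-27+cabo tumor of mouse 20 stood apart, with the lowest total, the fewest genes detected (21269) and a TMM normalization factor of 0.82, so the combination at day 14 against control and the correlations are also given without it. Between 30.4% and 35.5% of the low counts (1 to 20) in each library were multiples of 4, and a fit on counts divided by 4 was among the alternatives. RNA of general dendritic cell genes was detected in every tumor. The summed level of 7 such genes ranged from 27.6 to 481 CPM, the counts scaled to a common library size. Itgax, the CD11c gene, ranged from 2.95 to 22.8 CPM. In the same tumors 10 monocyte and macrophage genes summed to 202 to 1732 CPM, and these levels do not tell which cells held the RNA.

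Promoter sequences from RefSeq matched 8 of the 10 genes on build GRCm38.p6. The 3 promoters shown are those of the receptor, of its ligand and of Cd209a, the gene with the smallest adjusted p among the 10. Each line runs 5′ to 3′ on the minus strand, where all 3 genes lie, over 300 bases around the annotated start, and capitals mark a motif. The windows are chr5:147400440-147400739 for Flt3, chr7:45136383-45136682 for Flt3l and chr8:3748935-3749234 for Cd209a.
Flt3: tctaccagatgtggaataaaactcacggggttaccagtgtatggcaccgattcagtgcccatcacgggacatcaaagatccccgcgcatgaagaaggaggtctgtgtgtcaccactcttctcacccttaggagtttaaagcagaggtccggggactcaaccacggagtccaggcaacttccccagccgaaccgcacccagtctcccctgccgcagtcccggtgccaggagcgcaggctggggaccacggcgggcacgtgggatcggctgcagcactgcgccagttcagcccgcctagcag
Flt3l: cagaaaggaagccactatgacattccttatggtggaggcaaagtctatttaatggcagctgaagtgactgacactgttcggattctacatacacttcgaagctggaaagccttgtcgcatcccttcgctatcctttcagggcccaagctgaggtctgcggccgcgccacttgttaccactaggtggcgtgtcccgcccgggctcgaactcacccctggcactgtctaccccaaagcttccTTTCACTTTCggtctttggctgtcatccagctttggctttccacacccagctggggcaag
Cd209a: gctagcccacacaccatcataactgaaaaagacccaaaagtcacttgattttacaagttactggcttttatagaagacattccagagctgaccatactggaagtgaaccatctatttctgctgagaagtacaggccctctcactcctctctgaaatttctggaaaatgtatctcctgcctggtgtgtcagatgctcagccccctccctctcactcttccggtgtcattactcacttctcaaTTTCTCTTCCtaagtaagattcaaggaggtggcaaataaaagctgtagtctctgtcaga
The search covered, on both strands, the interferon-stimulated element core (GAAA, any 2 bases, GAAA), the ETS-IRF composite (GGAA, any 2 bases, GAAA), the PU.1 core GAGGAA and the AP-1 site TGANTCA. The first 2 patterns differ in 1 letter, and the PU.1 core can overlap the composite. The Flt3l window held 1 interferon-stimulated element core, which 3.443% of all 32851 promoters of this length also held. The Cd209a window held 1 ETS-IRF composite, held by 2.715% of promoters, and the Flt3 window held none of the 4 patterns. Batf3 and Siglech each had 1 PU.1 core, a pattern of 28.3% of promoters, Zbtb46 had 1 AP-1 site, a pattern of 7.81%, and Xcr1 and Clec9a had none. The windows of Zbtb46 (chr2:181424339-181424638) and Batf3 (chr1:191098164-191098463) follow RefSeq starts that lie inside the genes as GENCODE M21 bounds them, downstream of the outermost start.

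Levels were compared between genes per kilobase of transcript. The median over the 24 tumors was highest for Flt3l at 1.98 CPM per kb, followed by Flt3 at 1.48, Ccr7 at 1.23 and Batf3 at 1.03 CPM per kb. Zbtb46, Clec9a, Itgae and Cd209a followed at 0.423, 0.37, 0.261 and 0.188 CPM per kb. The lowest were Siglech at 0.0986 and Xcr1 at 0.0856 CPM per kb. Flt3, Flt3l, Clec9a, Zbtb46 and Ccr7 had at least 10 counts in all 24 tumors, whereas Cd209a and Siglech were each at 0 in 5 tumors and under 10 counts in 9.

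**Figure D1:**
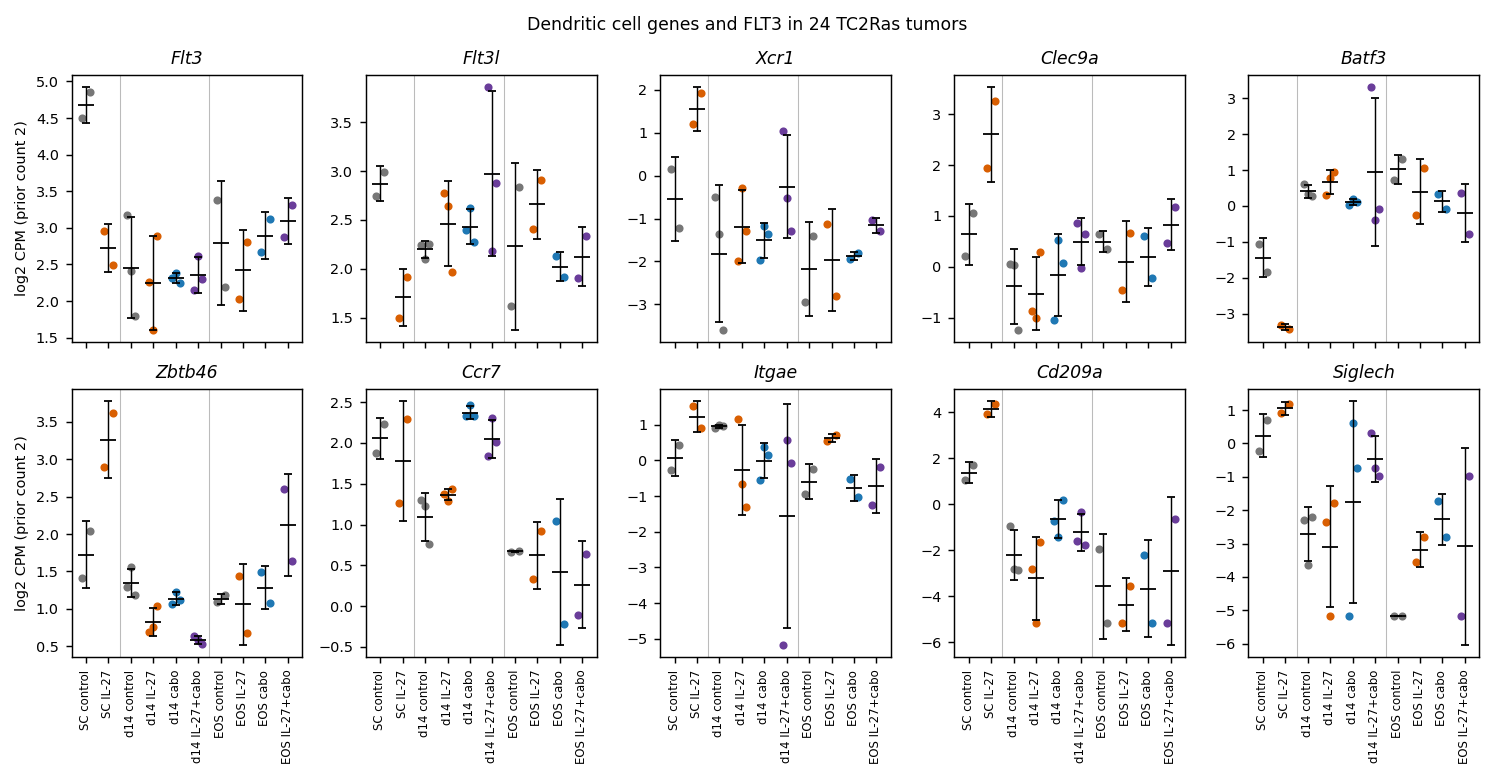
Level of each gene in the 24 tumors, as log2 CPM with a prior count of 2, by group. Each point is a tumor, the bar is the group mean and the whisker 1 SD and Flt3 is highest in the 2 subcutaneous control tumors, at 22.7 and 28.9 CPM, and Cd209a in the 2 subcutaneous IL-27 tumors, at 15 and 20.7 CPM.

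In the subcutaneous tumors, IL-27 went with less Flt3 and more Cd209a. Flt3 (chr5:147330741-147400489, minus strand, GRCm38) stood at 22.7 and 28.9 CPM in the control tumors and at 7.75 and 5.59 CPM in the IL-27 tumors. Both IL-27 tumors were below both controls. Flt3 fell by 1.93 on the log2 scale (SE 0.40, edgeR adjusted p = 0.0169). Cd209a (chr8:3743397-3748984, minus strand), a C-type lectin gene of monocyte-derived dendritic cells, stood at 2.06 and 3.21 CPM in the controls and at 15 and 20.7 CPM in the IL-27 tumors. It rose 6.81-fold (log2 2.77, SE 0.46, edgeR adjusted p = 0.00678). These were 2 of 10 genes called, against a background of 20% of the 19360 genes tested, with 3.52% called higher and 16.5% called lower. DESeq2 called 5 of the 10, adding Xcr1, Clec9a and Zbtb46, where it called 31.9% of all genes. The Flt3 call was lost without IL-27 library 2 (log2 -1.69, edgeR adjusted p = 0.109), and the Cd209a call was lost in one fit of all 24 tumors (edgeR adjusted p = 0.17).

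The ligand gene and the cDC1 receptors moved in opposite directions in the subcutaneous arm without passing the adjusted threshold. Flt3l (chr7:45129788-45136432, minus strand) was 6.66 and 7.94 CPM in controls and 2.79 and 3.74 CPM with IL-27, a log2 difference of -1.15 (SE 0.45, edgeR adjusted p = 0.12). Xcr1 (chr9:123852315-123862029, minus strand), the receptor for the chemokine XCL1, was 1.08 and 0.4 CPM in controls and 2.26 and 3.77 CPM with IL-27, a log2 difference of 2.04 (SE 0.69, edgeR adjusted p = 0.082). Clec9a (chr6:129408862-129424763, plus strand), a receptor for the actin of dead cells, was 1.14 and 2.07 CPM in controls and 3.83 and 9.61 CPM with IL-27, a log2 difference of 2.07 (SE 0.63, edgeR adjusted p = 0.0622). In each of these 3 genes the groups did not overlap. Zbtb46 (chr2:181387762-181459426, minus strand), a factor of conventional dendritic cells that endothelium also expresses, was 2.62 and 4.08 CPM in controls and 7.44 and 12.3 CPM with IL-27, a log2 difference of 1.56 (SE 0.49, edgeR adjusted p = 0.0662). Batf3 (chr1:191097847-191108945, plus strand), the cDC1 factor, had 36 and 19 counts in controls and only 6 and 5 with IL-27, the opposite direction to the receptors (log2 -2.32, SE 1.17, edgeR adjusted p = 0.206).

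Itgae, Siglech and Ccr7 did not pass the unadjusted threshold of 0.05 either, as Batf3 had not (edgeR unadjusted p = 0.0893). Itgae (chr11:73090583-73147446, plus strand), the CD103 integrin gene, was 0.795 and 1.31 CPM in controls and 2.84 and 1.86 CPM with IL-27. Siglech (chr7:55768178-55778925, plus strand) was 0.833 and 1.59 CPM against 1.85 and 2.26 CPM. Ccr7 (chr11:99144196-99155077, minus strand), the receptor that guides migration to lymph nodes, was 3.65 and 4.68 CPM against 2.37 and 4.88 CPM and was the only gene of the 10 in which the groups overlapped. In all, 6 genes were higher and 3 lower in both IL-27 tumors than in both controls, where 31.7% of all genes tested were higher and 35.2% lower in this way.

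The subcutaneous differences were also computed with the base composition of the transcripts taken into account. The genes with higher values under IL-27 included the 4 of lowest GC content, Xcr1 (42.0%), Clec9a (44.2%), Cd209a (44.3%) and Siglech (45.5%), and the most negative value belonged to Batf3, the gene of highest GC content (60.7%). Genes of nearly equal GC content went opposite ways, Itgae (51.4%) against Flt3 (51.2%) and Zbtb46 (49.8%) against Flt3l (50.2%). When each library's trend with transcript GC content and length was removed, the median of all genes tested moved from 0.04 to -0.32 on the log2 scale. Relative to that median, Cd209a was higher by 2.17 (2.73 without the correction) and Flt3 was at -1.69 (-1.97 without it), and both were still called, with edgeR adjusted p of 0.0323 and 0.0191. Clec9a stood at 1.46 instead of 2.03 and Xcr1 at 1.06 instead of 2.00, again relative to the median. Batf3 turned to 0.75 relative to the median from -2.35, and Siglech stood at 0.27 instead of 0.74. Ccr7 turned to 0.76 from -0.23, while Zbtb46 (1.49 instead of 1.53), Itgae (1.47 instead of 1.15) and Flt3l (-1.18 instead of -1.19) moved less.

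**Figure D2:**
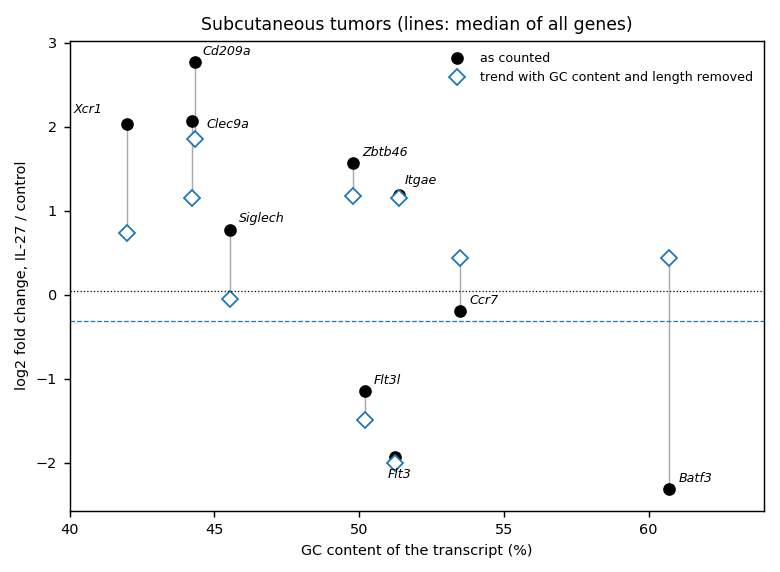
Log2 fold change (IL-27 / control, subcutaneous tumors) of each gene against the GC content of its transcript, in percent. Black points are values as counted, open diamonds values with the trend with GC content and length removed, and the dotted and dashed lines are the medians of all genes before (0.04) and after (-0.32) the correction where Batf3 crosses 0 and Cd209a and Flt3 do not.

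Genes of other cell types also differed between these 4 tumors, in values without the GC and length correction. Genes of skeletal muscle were called higher in 11 of 12, with a summed level of 3.47 to 12.6 CPM in controls and 390 to 1008 CPM with IL-27. Krt8, Krt19 and Hras, markers of the tumor epithelium, stood at -3.81, -4.70 and -3.89 on the log2 scale, all called. Of 5 leukocyte genes 2 were called higher and 2 lower, Coro1a (log2 -2.30) and Laptm5 (198 and 161 CPM in controls, 33.2 and 55.9 CPM with IL-27), and the mean log2 CPM of the 5 was 5.69 in controls and 5.66 with IL-27. Ptprc, one of the 5, was 30.1 and 75.3 CPM in controls and 201 and 223 CPM with IL-27. The log2 CPM of Flt3 minus that of Ptprc ran from -1.38 to -0.41 in controls and from -5.32 to -4.69 with IL-27, and that of Cd209a averaged -4.20 and -3.59. On the same scale Xcr1 stood at -6.11 and -6.17, Clec9a at -4.93 and -5.12 and Zbtb46 at -3.85 and -4.47, with overlapping groups in these genes. Itgae (-5.51 and -6.51), Siglech (-5.34 and -6.68), Ccr7 (-3.52 and -5.95), Flt3l (-2.71 and -6.02) and Batf3 (-7.02 and -11.11) were lower with IL-27 without overlap. Relative to the mean of the 5 leukocyte genes instead, Xcr1 stood at -6.22 and -4.10, Clec9a at -5.05 and -3.05, Cd209a at -4.31 and -1.51 and Flt3 at -1.01 and -2.93, with no overlap. Zbtb46 (-3.96 and -2.39), Itgae (-5.62 and -4.44) and Siglech (-5.45 and -4.60) were higher and Flt3l (-2.82 and -3.95) and Batf3 (-7.13 and -9.03) lower without overlap on that scale, and Ccr7 overlapped (-3.63 and -3.88). Without the GC and length correction, Cd209a was thus higher and Flt3, Flt3l and Batf3 lower on both scales. With that correction Batf3 had stood at 0.75 relative to the median of all genes, the opposite sign. The values of Xcr1, Clec9a, Zbtb46, Itgae, Siglech and Ccr7 depended on the leukocyte measure used. Of 10 monocyte and macrophage genes, the chemokine receptor gene Ccr2 was called higher (log2 2.22) and 3 were called lower, among them C1qa (-3.86) and Cd14 (-2.24), and their mean log2 CPM was 5.97 in controls and 5.84 with IL-27. Of 9 T cell genes 2 were called higher, Cd8a (4.19) and Cd3g (2.53), and the mean of the list was -0.76 and 0.61. Of 6 NK cell genes 2 were called higher, Klrk1 (2.09) and Gzma (3.76), and the mean was 0.87 and 2.56. Of 10 endothelial genes 2 were called lower, with a mean of 4.67 and 4.56. Of 7 genes of marrow progenitors, cells that also carry FLT3, 4 could be tested and 1 was called higher, Mpo, with 0 counts in both controls and 78 and 104 counts with IL-27, and the mean was -1.75 and 0.04. The part of muscle, tumor cell, progenitor, T and NK cell and other leukocyte content in the results was not tested.

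The counts for the other dendritic cell and FLT3 pathway genes stand against 3.52% of all genes called higher and 16.5% called lower. Among 12 genes of migratory and mature dendritic cells, 3 were called higher and 3 lower, the latter being Fscn1, an actin-bundling protein that tumor cells also express (-5.43), Cacnb3 (-3.10) and Relb (-2.95). Among 11 cDC1 genes 2 were called higher, Cd24a (3.21) and Tlr11 (4.37), and among 11 cDC2 genes none was called, with 2 higher at an unadjusted p under 0.05 and 0 lower, where 12.3% of all genes were higher and 23.1% lower at that level. Of 24 genes that act downstream of FLT3, 1 was called higher and 3 lower: Hras, also a transgene of this line (-3.89), Stat5b (-1.94) and Stat5a (-1.45). That is a share of the list not far from the background, and the median log2 difference over these 24 genes was 0.48, beside 0.04 over all genes. Of 7 general dendritic cell genes 1 was called higher, Cd80 (2.00), and 1 lower, Spi1, which encodes PU.1 (-1.87). Of 11 plasmacytoid genes tested Pacsin1 was called lower (-2.09). Of 7 ligand and partner genes tested 3 were called lower: Itgb7, which encodes the integrin chain that pairs with CD103 (-2.57), Csf2ra, a chain of the GM-CSF receptor (-1.84), and Ccl21a, with 265 and 587 counts in controls and 13 and 0 with IL-27.

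At day 14, IL-27 alone gave no call in any of the 9 genes that could be tested, and none at an unadjusted p under 0.05 by edgeR. Over all genes, 0 of 18519 passed in edgeR, 0% of those tested, with 511 (2.76%) at an unadjusted p under 0.05, and DESeq2 called 2 genes, none of them among the 10. Flt3 was 8.99, 5.27 and 3.43 CPM in control tumors of mice 3, 5 and 7 and 4.78, 3.01 and 7.36 CPM in IL-27 tumors of mice 4, 6 and 8. The 2 groups overlapped throughout. Zbtb46 was the only gene of the 10 in which they did not, at 2.42, 2.91 and 2.25 CPM in controls and 1.59, 1.65 and 2.03 CPM with IL-27 (log2 -0.53, SE 0.28, edgeR adjusted p = 1.00), where 4.43% of all genes were lower without overlap. Cd209a, with 36, 9 and 8 counts in controls and 8, 0 and 20 with IL-27, did not pass the filter on low counts.

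At day 14, cabo went with more Ccr7. The level was 2.44, 2.32 and 1.67 CPM in control tumors and 4.99, 5.47 and 4.99 CPM in the cabo tumors of mice 21, 25 and 27. Every cabo tumor was above every control. Ccr7 rose 2.39-fold (log2 1.26, SE 0.21, edgeR adjusted p = 0.0329) and was the only one of the 10 genes called, where 1.89% of 18627 genes were called and 1.2% were called higher. The call was lost when the muscle score was a covariate (log2 1.33, edgeR adjusted p = 0.69), where 0% of all genes were called. It was also lost with no filter on low counts (edgeR adjusted p = 0.0734, 0.347% of genes called). The same held with all 24 tumors in one fit (edgeR adjusted p = 0.332, 0.175% called). Without the tumor of any one of mice 21, 25, 27 or 7 it was lost too (edgeR adjusted p from 0.0787 to 0.128, 0.415% to 0.66% called). The size of the difference stayed between 1.10 and 1.36.

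Genes that act with CCR7 were also measured in the cabo comparison. Ccl22, a chemokine of mature dendritic cells, was 3.67, 2.06 and 2.46 CPM in controls and 6.19, 7.7 and 6.52 CPM with cabo, a rise of 1.31 on the log2 scale (SE 0.25, edgeR adjusted p = 0.0453). Ccl21a, a ligand of CCR7 made by lymphatic and stromal cells, was 14.5, 19.1 and 17.6 CPM in controls and 0.942, 0.11 and 1.05 CPM with cabo, a fall of 4.61 (SE 0.62, edgeR adjusted p = 0.0156). Mice carry near-identical copies of this ligand gene, so its reads could be split between them. Ccl19, the other ligand, was at 0 in all 3 controls and in all 3 cabo tumors. Among the 10 migratory and mature genes tested 1 was called higher (Ccl22) and 2 lower, Cd200 (-1.57) and Fscn1 (-0.43), so the list did not move one way.

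The other genes of the 10 did not pass the threshold with cabo. Flt3 was 4.94, 5.21 and 4.72 CPM, within the range of the controls, and Flt3l was 5.22, 6.14 and 4.81 CPM against 4.71, 4.26 and 4.73 CPM (log2 0.23, SE 0.17, edgeR adjusted p = 0.508). Itgae was 0.656, 1.27 and 1.08 CPM with cabo and 1.83, 1.96 and 1.91 CPM in controls, lower in every cabo tumor (log2 -0.93, SE 0.31, edgeR adjusted p = 0.169). Batf3 was 0.999, 1.12 and 1.05 CPM with cabo and 1.5, 1.24 and 1.18 CPM in controls. In all, 2 of the 10 genes were higher and 2 lower without overlap, where 14.2% and 12.9% of all genes were. Cd209a was 0.571, 0.344 and 1.13 CPM with cabo and 0.488, 0.116 and 0.109 CPM in controls, and Siglech was 0, 1.49 and 0.577 CPM with cabo and 0.176, 0.0515 and 0.191 CPM in controls. The groups overlapped in both.

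Genes of other cell types differed in the same tumors. Of 9 T cell genes 5 were called lower, with Cd3e down by 1.97 on the log2 scale, and of 10 endothelial genes 5 were called lower, with a summed level of 266 to 366 CPM in controls and 157 to 178 CPM with cabo. The summed level of 12 muscle genes was 5.5 to 141 CPM in controls and 1110 to 1801 CPM with cabo, and 3 of them were called higher. No gene among 5 leukocyte and 10 monocyte and macrophage genes was called in either direction by edgeR, with 1 and 2 higher at an unadjusted p under 0.05, where 9.64% of all genes were. Relative to Ptprc, Ccr7 was at a mean log2 CPM of -4.79 in controls and -3.46 with cabo, from -4.93 to -4.60 and from -3.82 to -3.27, without overlap. With IL-27 alone, where Ptprc was 40, 27 and 29.7 CPM against 70.9, 56.7 and 51.8 CPM in controls, it averaged -3.62. It then ran from -3.94 to -3.46, and with the combination from -3.70 to -2.84, both also above all controls, so this separation was not particular to cabo. Relative to the mean of the 5 leukocyte genes, Ccr7 averaged -4.31 in controls, -3.07 with cabo and -3.36 with IL-27. The muscle score, the mean log2 CPM of the 12 muscle genes, ran from -1.68 to 2.76 in controls and from 5.57 to 6.21 with cabo. The groups did not overlap in it, so the muscle covariate could not separate muscle content from treatment. The part of muscle, T cell and endothelial content in these results was not tested.

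Among genes that act downstream of FLT3, 1 of 24 was called higher with cabo and 2 lower, where 1.2% of all genes were called higher and 0.693% lower. Lck, a T cell kinase, was at -1.35 on the log2 scale, Fyn at -0.44 and Cbl, a ubiquitin ligase that restrains receptor kinases, at 0.52. The median over the list was 0.12, beside -0.01 over all genes. The cytokine receptor gene Csf2rb (0.85) was also called, as was Cox6a2 (2.59), a gene of the plasmacytoid list that muscle also expresses. Of the 10 cDC1 genes tested 0 were called higher and 1 lower, the adhesion gene Cadm1 (-1.27), while the mean log2 CPM of the 11 genes of that list was higher with cabo, at 3.24 against 2.87 in controls. Of 10 cDC2 genes tested none was called by edgeR, with 0 higher and 3 lower at an unadjusted p under 0.05. At that level 9.64% of all genes were higher and 9.27% lower. The mean of the cDC2 list was 1.31 against 1.71.

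**Figure D3:**
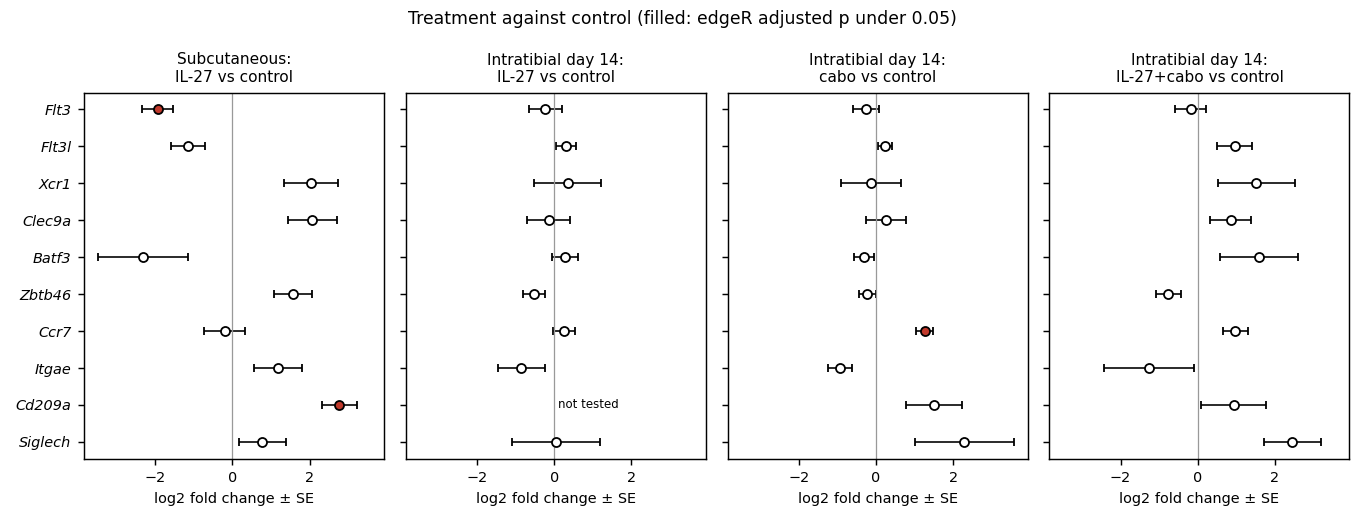
Log2 fold change against control (horizontal axis, whiskers 1 SE) of the 10 genes in the subcutaneous comparison and the 3 day 14 comparisons. Filled points passed an edgeR adjusted p of 0.05: Flt3 and Cd209a with IL-27 in subcutaneous tumors and Ccr7 with cabo at day 14.

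The combination at day 14 gave no call among the 10 genes by edgeR or DESeq2, where 0.064% of 18750 genes were called, and 3 of the 10 had an unadjusted p under 0.05, as did 6.2% of all genes. Ccr7 was 3.56, 4.91 and 4.01 CPM in the tumors of mice 20, 22 and 24, above all 3 controls (log2 0.97, SE 0.32, edgeR adjusted p = 0.588). Siglech, the plasmacytoid gene, was 1.22, 0.575 and 0.476 CPM, also above all 3 controls (log2 2.44, SE 0.74, edgeR adjusted p = 0.499). Zbtb46 was 1.53, 1.47 and 1.41 CPM, below all 3 controls (log2 -0.77, SE 0.32, edgeR adjusted p = 0.799). Itgae, with 0 counts in mouse 20 and 1.44 and 0.924 CPM in the others, was also below all controls. Without overlap, 2 genes were higher and 2 lower, where 7.39% and 7.94% of all genes were. In the same tumors the summed level of 10 endothelial genes was 126 to 155 CPM against 266 to 366 CPM in controls, with 0 called by edgeR and 8 lower at an unadjusted p under 0.05. The 12 muscle genes summed to 1450 to 4527 CPM against 5.5 to 141 CPM, with 0 called and 12 higher at that level. Of the T cell genes Cd3e was called lower (log2 -2.67, edgeR adjusted p = 0.0406). The part of endothelial, muscle and T cell content in these results was not tested.

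The tumor of mouse 20 decided several means in the combination group. It held 9.97 CPM of Batf3, against 0.735 and 0.91 CPM in mice 22 and 24, and 14.5 CPM of Flt3l, against 4.52 and 7.3 CPM. Without it, Batf3 in the combination stood at -0.67 against control and Flt3l at 0.37. Ccr7, Siglech and Zbtb46 kept their directions without it, at 1.05, 1.90 and -0.81, with edgeR adjusted p of 0.172, 0.306 and 0.28.

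Against the single agents, the combination gave 0 calls by edgeR over all genes, with 359 genes (1.92%) at an unadjusted p under 0.05 against cabo (5 called by DESeq2) and 900 (4.85%) against IL-27 (167 called by DESeq2). None of the 10 genes reached an unadjusted p under 0.05. Ccr7 and Zbtb46 were lower in every combination tumor than in every cabo tumor, where 6.89% of all genes were, with log2 differences of -0.29 (SE 0.24) and -0.54 (SE 0.27). Against IL-27, Ccr7 (0.70, SE 0.33) and Siglech (2.37, SE 1.16) were higher and Zbtb46 lower (-0.26, SE 0.37) without overlap, where 6.43% of genes were higher and 6.46% lower. The interaction of IL-27 and cabo gave 0 calls of 19899 genes by edgeR, with 375 (1.88%) at an unadjusted p under 0.05 and 4 called by DESeq2, and none of the 10 genes reached an unadjusted p under 0.05.

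At the end of the study, no treatment gave a call by edgeR in any of the 20026 genes tested against control, with 0% called in each comparison. For IL-27, cabo and the combination in turn, 651, 1783 and 2835 genes had an unadjusted p under 0.05, and DESeq2 called 23, 270 and 937, none of them among the 10. Of the 10 genes, 1, 1 and 2 had an unadjusted p under 0.05 by edgeR, against 3.25%, 8.9% and 14.2% of all genes. Flt3 was 10.4 and 4.54 CPM in control tumors of mice 9 and 13, 4.04 and 7 CPM with IL-27, 6.33 and 8.66 CPM with cabo and 7.3 and 9.9 CPM with the combination. Only 1 treated tumor, at 4.04 CPM, was outside the control range. Siglech was at 0 counts in both control tumors, at 4 and 8 counts with IL-27, 20 and 8 with cabo and 0 and 36 with the combination. With a floor of 3 counts per library set for the controls, its mean was 2.02-fold that floor with IL-27 and 4.56-fold with cabo. With the combination, where 1 of the 2 tumors was itself at 0, it was 5.58-fold. The counting error of these means was not included.

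Other EOS differences were carried by 2 tumors a group. Zbtb46 was 6.03 and 3.08 CPM with the combination and 2.1 and 2.23 CPM in controls (log2 1.09, SE 0.42, edgeR adjusted p = 0.308). Itgae was 1.43 and 1.6 CPM with IL-27 and 0.492 and 0.81 CPM in controls (log2 1.21, SE 0.51, edgeR adjusted p = 1.00). Ccr7 was 1.56 and 1.56 CPM in controls, and 1.23 and 1.86 CPM with IL-27, 2.04 and 0.835 CPM with cabo and 0.897 and 1.53 CPM with the combination. Batf3 was lower than in both controls with cabo and with the combination, at 1.23 and 0.921 CPM and 1.26 and 0.555 CPM against 1.63 and 2.43 CPM. Among the 10 genes, the groups did not overlap in 2 with IL-27, 2 with cabo and 4 with the combination, where 32.8%, 43.5% and 42.4% of all genes did not. The 12 muscle genes summed to 6.47 to 12.3 CPM in controls, 8.38 to 16.1 with IL-27, 118 to 884 with cabo and 102 to 226 with the combination. In the same order, mean log2 CPM was 4.36, 4.05, 5.05 and 5.69 for 10 monocyte and macrophage genes. For 10 endothelial genes it was 4.26, 4.01, 4.83 and 4.75. The part of these cell types was not tested.

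Between day 14 and EOS, Ccr7 was lower in every group, without overlap in any of the 4 groups, where 16.6% of all genes were lower in this way in controls, 11.7% with IL-27, 18.6% with cabo and 11% with the combination. In the cabo group it went from 4.99, 5.47 and 4.99 CPM to 2.04 and 0.835 CPM (log2 -1.83, SE 0.38, edgeR adjusted p = 0.0693), and in the combination group from 3.56, 4.91 and 4.01 CPM to 0.897 and 1.53 CPM (log2 -1.79, SE 0.47, edgeR adjusted p = 0.712). The differences were -0.47 (SE 0.33) in controls and -0.71 (SE 0.36) with IL-27. The mean log2 CPM of the 5 leukocyte genes was also lower at EOS in each group, going from 5.40 to 4.25 in controls, from 4.73 to 3.94 with IL-27, from 5.44 to 4.71 with cabo and from 5.48 to 5.10 with the combination. Relative to Ptprc, Ccr7 was higher at EOS in controls (-4.79 to -4.15, without overlap), near level with IL-27 (-3.62 to -3.75) and lower without overlap with cabo (-3.46 to -4.61) and with the combination (-3.37 to -5.36). Relative to the mean of the leukocyte genes, Ccr7 went from -4.31 to -3.58 in controls, from -3.36 to -3.32 with IL-27, from -3.07 to -4.30 with cabo and from -3.43 to -4.84 with the combination. The part of leukocyte content in the lower Ccr7 counts was not tested beyond these ratios. Ccr7 did not pass the edgeR threshold in any of the 4. Over all genes edgeR called 0 in the IL-27 and combination groups, with 963 and 742 at an unadjusted p under 0.05, where DESeq2 called 109 and 330. For Ccr7, DESeq2 called the difference in the cabo and the combination groups, where it called 9.08% and 1.7% of all genes. The test of whether the cabo effect differed between the time points gave -1.39 (SE 0.52, edgeR unadjusted p = 0.0168, adjusted p = 1.00), where 0.0788% of 21563 genes were called and 4.11% had an unadjusted p under 0.05.

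In the cabo group, where 2.09% of 19144 genes were called with time, 1 of the 11 migratory and mature genes tested was called lower (Ccl22) and 1 higher (Cd200). Ccl22 fell by 2.41 (SE 0.37) to 1.76 and 0.777 CPM, and Cd80, a costimulatory ligand of the general dendritic cell list, fell by 1.24 (SE 0.18), with edgeR adjusted p of 0.0312 and 0.0269. Csf2rb fell by 0.93 (adjusted p = 0.0296), and Csf2, which encodes the cytokine GM-CSF, went from 0.742, 0.344 and 0.563 CPM to 0 in both EOS tumors. Cd209a was 0.571, 0.344 and 1.13 CPM at day 14 and 0.191 and 0 CPM at EOS. Cd200 (1.46) was called higher, as were 1 of 11 cDC1 genes, Cadm1 (1.61), and 2 of 10 cDC2 genes tested, Esam (1.63) and Mgl2 (1.02), with none of either list called lower. Over all genes 0.945% were called higher and 1.14% lower. The mean log2 CPM of both lists was lower at EOS, going from 3.24 to 2.92 for cDC1 and from 1.31 to 0.98 for cDC2, so that these single genes moved against the mean of their list. In the same tumors Cd3e fell by 3.32, 8 of 10 endothelial genes were called higher and 3 of 10 monocyte and macrophage genes lower, and the summed muscle level was 1110 to 1801 CPM at day 14 and 118 to 884 CPM at EOS, and their part in the result was not tested.

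**Figure D4:**
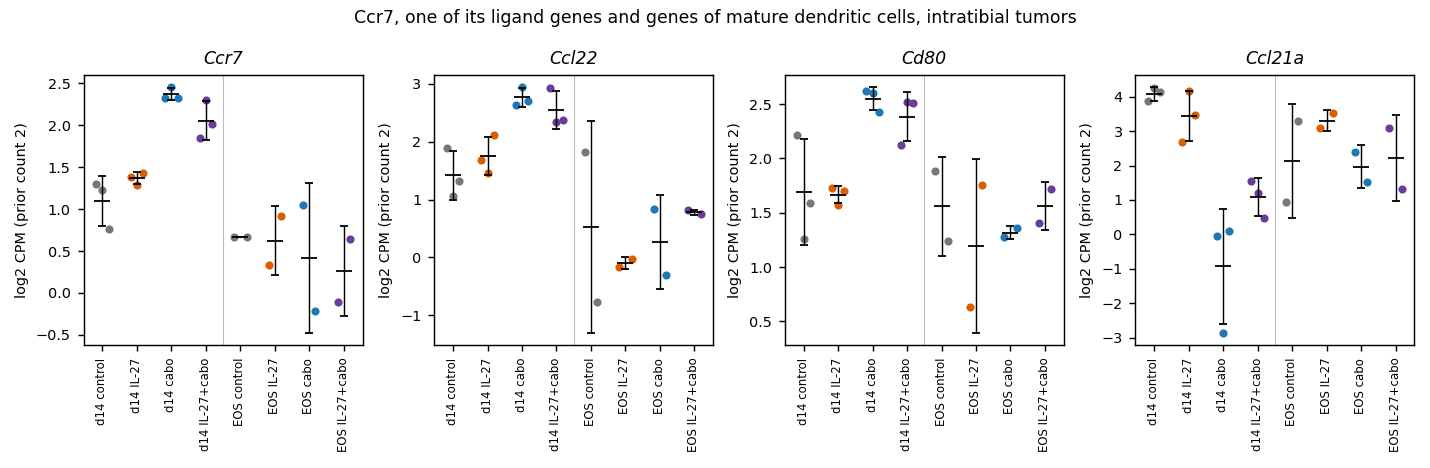
Level of Ccr7, Ccl22, Cd80 and Ccl21a, as log2 CPM with a prior count of 2, in the 20 intratibial tumors by group. Each point is a tumor, the bar is the mean and the whisker 1 SD, and at day 14 Ccr7, Ccl22 and Cd80 are higher in all 3 cabo tumors than in the 3 controls and Ccl21a is lower, and Ccr7 is lower at EOS than at day 14 in each treatment.

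Among the other genes, Itgae, Siglech, Flt3 and Zbtb46 differed with time at an unadjusted p under 0.05, each in 1 group. With Ccr7 counted, 2 of the 10 genes did so in controls, 2 with cabo and 2 with the combination, against 13.1%, 17.6% and 3.83% of all genes. In controls, Itgae went from 1.83, 1.96 and 1.91 CPM to 0.492 and 0.81 CPM (log2 -1.56, SE 0.38, edgeR adjusted p = 0.202), which DESeq2 called, where edgeR called 0.104% and DESeq2 4.52% of 19292 genes. In the same controls 3 of 9 T cell genes were called lower, Cd4, Cd3g and Cd3e, and the integrin of Itgae is also carried by T cells of epithelia. Siglech went from 13, 4 and 14 counts in day 14 controls to 0 in both EOS controls. Its day 14 mean was 3.27-fold the floor of 3 counts, without the counting error of that mean. Flt3 was higher at EOS with cabo, at 6.33 and 8.66 CPM against 4.94, 5.21 and 4.72 CPM (log2 0.60, SE 0.18, edgeR adjusted p = 0.163), and Zbtb46 was higher with the combination (log2 1.62, SE 0.46, edgeR adjusted p = 0.749). With IL-27, none of the 9 genes tested was called or had an unadjusted p under 0.05 by edgeR (5.05% of all genes did), and DESeq2 called none of them.

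Over the 20 intratibial tumors, the 10 genes did not vary as one block. Ccr7 and Cd209a had a Pearson r of 0.73, Cd209a and Siglech 0.60 and Flt3 and Clec9a 0.58, and the receptor and the ligand had an r of -0.50. Over the 19 tumors without mouse 20, an alternative chosen after seeing the data, these were 0.73, 0.60, 0.67 and -0.53. Flt3l and Batf3 had an r of 0.61 and Batf3 and Itgae one of -0.71, but both rest on mouse 20 and were 0.12 and -0.15 without it. These tumors share treatments and harvest times, and in sparse genes such as Cd209a the coefficient rests on few counts. Reference genes of other cell types gave values of similar size. Pecam1, an endothelial gene, had an r of 0.65 with Flt3 (0.65 without mouse 20), 0.56 with Zbtb46 (0.52), -0.62 with Flt3l (-0.51) and -0.60 with Ccr7 (-0.59). Cd209a had an r of 0.73 with Ptprc (0.78 without mouse 20), 0.71 with Irf8 (0.71) and 0.66 with the macrophage gene Adgre1 (0.69). The muscle gene Acta1 had an r of 0.62 with Ccr7 (0.60) and 0.55 with Siglech (0.48), and Irf8 one of 0.55 with Siglech (0.53). Itgae and the T cell gene Cd3e had an r of 0.43, and of 0.75 without mouse 20.

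The genes most like each of the 10 over these 20 tumors, by Pearson r among 21562 genes, included none of the other 9. Cd209a was closest to Kmo (0.91), an enzyme of tryptophan breakdown, Creb3l1 (0.87) and Il24 (0.87), and Ccr7 to Usp13 (0.86), Mal2 (0.85) and Gm4841 (0.84). Flt3 was closest to Dglucy (0.82), 2510009E07Rik (0.81) and Cryl1 (0.81), Flt3l to 1700088E04Rik (0.81), Prss36 (0.81) and Taf1c (0.80). Batf3 was closest to Zfp511 (0.92), Sap18b (0.91) and Nat9 (0.91), and Itgae to Gm12430 (0.91), B3glct (0.90) and Ubtd2 (0.90). Without mouse 20 the r of the 3 neighbours ran from 0.73 to 0.77 for Batf3, from 0.65 to 0.69 for Itgae and, for the neighbours of Flt3l, from 0.58 to 0.59. Xcr1 was closest to Ccdc86 (0.82), Clec9a to Gm42047 (0.80), Zbtb46 to Gm44206 (0.79) and Siglech to Tmem140 (0.80).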

How the data were processed

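Poly(A) RNA libraries of 24 mouse tumors (TruSeq stranded) were sequenced by the authors. The deposited values are raw counts per gene for 55401 Ensembl identifiers, of which 55141 were found in GENCODE M21 (GRCm38). The submitters' processing notes name FastQC, HISAT2, StringTie and DESeq2, and list the build GRCh38 although the identifiers are of mouse. The program that wrote the counts, and whether it used strand, are not given in the sources used here. Members that overlap another gene are uncertain to that extent. On the other strand, Itgae overlaps Haspin and Flt3 overlaps the antisense gene Gm26597. On the same strand, Clec9a overlaps Clec1b and Gm43914, Flt3l overlaps the protein-coding gene Gm45713 and Zbtb46 overlaps the small nuclear RNA gene Gm22708.

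Samples were grouped by their labels into 10 groups. Each comparison was fitted across all genes passing filterByExpr with edgeR 4.0.16 (R 4.3.3), using TMM factors and the quasi-likelihood F test on the tumors compared, with Benjamini-Hochberg adjustment and a threshold of 0.05, and the script was tested on simulated data. Members are called by edgeR's adjusted p, SE is the log2 fold change divided by the root of F, and groups do not overlap when every tumor of one exceeds every tumor of the other. Levels are TMM-scaled CPM over all 24 tumors, on the log2 scale with a prior count of 2. Totals of 63729005 to 83782258 counts set the precision, and floors of 3 counts cover only the counting error of the group at 0. Alternatives were DESeq2 1.42.0, RLE factors, no filter, one fit of all 24 tumors, counts divided by 4, removal of GC content and length trends (splines with 5 degrees of freedom, as offsets), a muscle score covariate, a replicate block and leaving out each tumor.

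The 10 genes, the lists of related genes and the tests were chosen with earlier results of these data known. Named genes are the 10, at most the 3 of smallest p per list and comparison among those called without overlap, and for each of the 10 the 3 nearest in correlation. Ccl19, and the levels of Cd80 at day 14, Ptprc and Itgax, were named outside this rule after their values were seen. Promoters came from RefSeq.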

Additional observations from a re-analysis of the deposited data

Results flagged for a closer look

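Zbtb46 went in opposite directions under IL-27 in the subcutaneous and the day 14 intratibial tumors, with every treated tumor above the controls in the former (log2 fold change 1.56) and below them in the latter (-0.53). Relative to Ptprc, the mean log2 CPM of Zbtb46 went the other way in both, from -3.85 to -4.47 and from -4.54 to -4.16, with overlapping groups. Relative to the mean of the 5 leukocyte genes, it went from -3.96 to -2.39 in the subcutaneous tumors, higher without overlap. At day 14 it went from -4.06 to -3.90 on that scale, with overlapping groups. The subcutaneous direction thus depended on the leukocyte measure used. The difference between these effects was not tested, and tumor site and harvest time cannot be told apart. The same holds for the TC2Ras-Luc cells and the PVP vehicle, named for the intratibial arm only. The prefix of the library names also differed between the arms.

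In the combination, Zbtb46 stood at -0.77 against control at day 14 and at 1.09 at EOS, with no overlap in either. The mean log2 CPM of 10 endothelial genes, a cell type that also expresses Zbtb46, moved the same way, from 4.31 in controls to 2.94 in the combination at day 14 and from 4.26 to 4.75 at EOS, and its part was not tested. Relative to Ptprc, Zbtb46 averaged -4.54 in controls and -4.84 in the combination at day 14 and -3.69 and -3.51 at EOS, with overlapping groups. Relative to the mean of the 5 leukocyte genes, it averaged -4.06 and -4.90 at day 14, lower in the combination without overlap. At EOS it averaged -3.12 and -2.99 on that scale, with overlapping groups. Ccr7 stood at 0.97 at day 14 and at -0.35 at EOS, again with no overlap in either. Between day 14 and EOS, Zbtb46 stood at -0.24 in the control group and at 1.62 in the combination group. These differences between groups were not tested.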

How the results depend on the processing

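The 48 values of the 10 genes with an unadjusted p under 0.05 or without overlap were recomputed in 551 alternatives, of which 522 kept direction and side of the threshold, 9 lost and 16 gained a call, and 4 had the opposite sign. These were Batf3 in the subcutaneous comparison (0.43 with the GC and length correction, 0.43 with the replicate block and that correction), Siglech there (-0.051 with the correction) and Batf3 with cabo at day 14 (0.0022 with the muscle covariate). The GC and length correction moved the median of all genes to -0.32, and relative to the median Siglech went from 0.74 to 0.27 and stayed positive, whereas Batf3 turned there too, to 0.75. Of the 10 genes, the subcutaneous comparison called 2, against 5 by DESeq2, 4 with counts divided by 4, 4 with the replicate block and 1 to 4 without one library. The same fits called 31.9%, 27.9%, 21.9% and 10% to 24.9% of all genes, against 20% as reported. Without IL-27 library 2 Flt3 stood at -1.69 (edgeR adjusted p = 0.109), and in one fit of all 24 tumors Cd209a had an adjusted p of 0.17. The day 14 cabo comparison called 1, against 0 with no filter, 0 with all 24 tumors in one fit, 0 with the muscle covariate and 0 to 1 without one tumor. These fits called 0.347%, 0.175%, 0% and 0.415% to 3.06% of all genes, against 1.89% as reported. Between day 14 and EOS 0 were called, against 1 by DESeq2 in the control, cabo and combination groups and 1 in the cabo group with counts divided by 4. The same fits called 4.52%, 9.08%, 1.7% and 3.41% of all genes. As reported, 0.104% were called in controls, 2.09% with cabo and 0% with the combination. Without the EOS cabo tumor of mouse 19, which leaves a single tumor in that group, Ccr7 stood at -2.62. The causes were not tested.

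The subcutaneous library numbers did not pair the samples (r = 0.03 over 19360 genes). With the replicate block, 969 genes were called higher and 3279 lower, and Clec9a (adjusted p = 0.0203) and Zbtb46 (0.0375) were called. No paired analysis was possible for the intratibial tumors because their groups share no mouse number.

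Over all genes, the calls ranged from 2093 (without control library 1) to 7076 (all 24 tumors in one fit) around 3880 in the subcutaneous comparison. They ranged from 0 (muscle covariate) to 1497 (DESeq2) around 352 with day 14 cabo, from 0 to 483 around 12 with the combination, from 0 to 872 around 20 for control with time, from 47 to 1739 around 400 for cabo with time, and from 6 to 89 around 17 for the change of the cabo effect. Groups of 2 or 3 tumors and low counts of Cd209a, Siglech and Xcr1 limit what could be detected.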
